A study of Mus musculus with 8 samples.

Results

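The regions described here are differential N6-methyladenosine (m6A) peaks made of exactly 2 blocks, that is, 2 stretches of sequence separated by a gap that the peak skips, as a peak does when it crosses a splice junction. They were chosen by the block count in the authors' deposited list of peaks that differed between Emg1 knockdown and control cells, and 512 of its 2114 peaks qualified. They lay on 500 genes, with 271 on the plus and 241 on the minus strand. The deposited list holds only peaks that the authors called different, so the changes below describe the members and are not tested. The largest false discovery rate among the members was 0.0257.

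The samples were N2a cells, an established mouse neuroblastoma line, transfected for 48 h with siRNA (short double-stranded RNA that lowers its target mRNA) directed at Emg1, or with siControl. Emg1 encodes a methyltransferase of 18S ribosomal RNA. Poly(A) RNA was sequenced before (input) and after immunoprecipitation (IP) with an antibody against m6A, which gave 4 groups of 2 libraries: m6A IP and input after knockdown, and m6A IP and input after control. Whether both libraries of a group stem from different cultures is not labelled, and the authors' p-values may then rest on technical spread.

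In input RNA, Emg1 stood at -1.73 ± 0.11 (log2 fold change, SE) with an adjusted p of 3.37e-54 by DESeq2 in the authors' deposited table. The table names no direction; because Emg1 is negative, knockdown is taken as the numerator, which leaves 30.2% of the control level. No differential peak was on Emg1. Of 16 sympathoadrenal and neuronal marker genes listed in the input table, 14 had a mean normalized count of at least 100 and Nefm and Dbh were lower, while Nefl was not listed. Only 1 of 6 fibroblast, 1 of 6 glial, 0 of 5 leukocyte and 1 of 6 epithelial or endothelial markers reached that level. The tables hold no value per library.

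m6A is written on nascent mRNA by a complex built around METTL3 and METTL14, most often in long internal exons and around the stop codon. Exon junction complexes, deposited just upstream of spliced junctions, are known to keep the mark away from short exons. A 2-block peak may place signal where 1 exon has been joined to the next, although some members lay almost wholly on 1 side of the gap. The antibody also recognises m6Am, the related modified base that can follow the cap at the first nucleotide of an mRNA. In what follows the sign of a peak change is that of the deposited file, in which no numerator is named. A negative or a positive change is therefore not read as a loss or a gain of m6A after knockdown.

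Of the 10 most negative 2-block peaks, 8 began at annotated transcription starts. The start sites of 5 of them are shown with those of Nfic and of 2 positive-change members, because most of the members that began at a start were negative. Each window runs from 20 bases before the start to 10 bases from the start onward, 5′ to 3′, in RefSeq sequence of GRCm38.p6, the assembly that mm10 names. The capital marks the first transcribed base.
Qrich1, chr9:108517067-108517096, plus strand: gagaagggccttcggctcccAttggccgtg
Scand1, chr2:156312695-156312724, minus strand: ttcctctgatctggaatccgAtcccgactc
Basp1, chr15:25413755-25413784, minus strand: ggggagggggagcgatcgagAaatgcagag
Arpc5, chr1:152766522-152766551, plus strand: ggacgcgggggcggagcgggGgctgaagga
Ogfr, chr2:180589387-180589416, plus strand: actgagcggtgggcgggaccTggcgccgcc
Nfic, chr10:81427164-81427193, minus strand: gagggaggagcgggagggcgGctgcaaaaa
Sdhaf3, chr6:6955998-6956027, plus strand: acgcccaccttctgcgcaggCgcggcgcga
D6Wsu163e, chr6:126939946-126939975, plus strand: aaaaaagcaagaagtcagctGacttatttg

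The first base was A in 3 of the 5 windows of the most negative members, G in Arpc5 and T in Ogfr. Of the 41 members that began exactly at an annotated start, 13 had A there (31.7%) and 22 had G (53.7%). Among 32817 annotated starts in the same RefSeq table, A stood at 34.4% and G at 35.6%. A preceded by C was found at 7 of the 41 (17.1%) and at 19.2% of all starts. These are annotated starts and not starts measured in these cells, and whether the peaks hold m6Am was not tested.

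The 2-block peaks were divided almost evenly by sign, with 267 negative and 245 positive changes (52.1% negative). Peaks of fewer and more blocks were not: 39.5% of the 1069 peaks of 1 block were negative, against 73.5% of 264 peaks of 3 blocks, 85.5% of 152 peaks of 4 blocks and 94.0% of 117 peaks of 5 or more. The share of negative changes thus rose with each added block, and 2-block peaks stood between the others. No test was made of this order, since all of these peaks were selected by their change and peaks are not replicates.

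**Figure D1:**
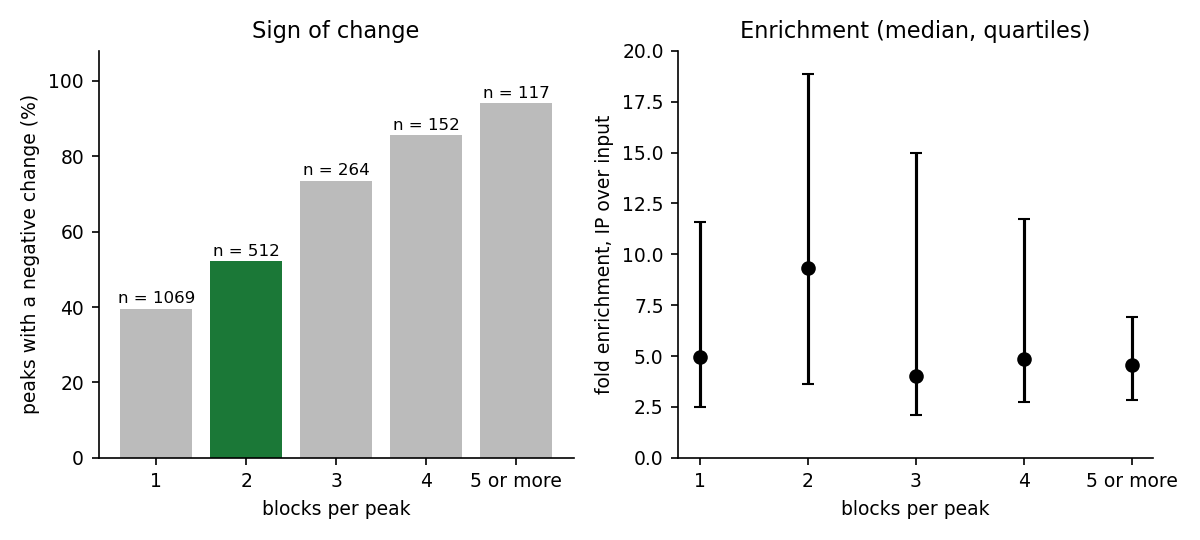
Left, the percent of differential peaks with a negative change by number of blocks, with the number of peaks above each bar and 2-block peaks in green. Right, the authors' ratio of IP to input per peak, as the median with its quartiles. The negative share climbs from 39.5% at 1 block to 94.0% at 5 or more, and the median enrichment is highest for 2 blocks.

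The enrichment, an IP-to-input ratio that the authors gave for each peak, measures how strongly the antibody pulled down the region. Its median was 9.325 in 2-block peaks (quartiles 3.64 and 18.9), against 4.96 in 1-block peaks and 4.51 in peaks of 3 or more blocks. The 2 signs differed within the 2-block peaks: the median was 5.07 for negative and 14.0 for positive changes. Peaks of 1 block had 4.215 and 5.73, and peaks of 3 or more blocks 3.655 and 16.9, so the signs lay farther apart in the class of more blocks and closer together in single blocks. The libraries behind the enrichment are not named, and it may rest partly on the same reads as the change.

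Weakly enriched 2-block peaks were nearly all negative. Of the 60 with an enrichment under 2, 57 were negative and 3 positive. Peaks of 3 or more blocks were alike, with 90 negative and 1 positive under 2, while 1-block peaks had 90 and 93. Among 2-block peaks the negative share was 71.7% of 106 between 2 and 5 and 48.0% of 102 between 5 and 10. It was 40.9% of 127 between 10 and 20, and 28.2% of 117 at 20 or above. Expression moved with it: the median of the mean normalized input count was 4038 for the genes of the least enriched group and 1540 for those of the most enriched, and its part in the split was not tested.

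Changes were modest for most members. The median absolute change was 0.72 on the log2 scale, 0.75 for negative and 0.70 for positive peaks, and the smallest was 0.168. A change of at least 2-fold was seen in 123 members (24%), 89 of them negative and 34 positive. In 1-block peaks 32.6% and in peaks of 3 or more blocks 21.0% reached that size. The members ran from -3.76 on Qrich1 to 2.59 on Hcn3 in the authors' deposited table.

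**Figure D2:**
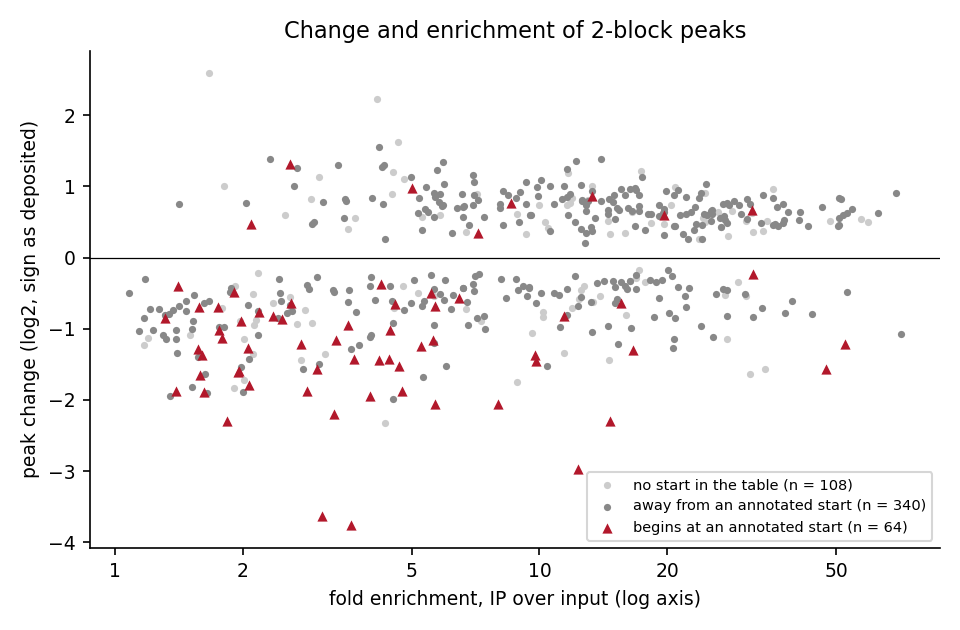
Each point is 1 of the 512 2-block peaks, with the authors' fold enrichment on a log axis and the deposited log2 change on the vertical axis. Triangles mark the 64 members that begin within 50 bases of an annotated start; 56 of them lie below 0, among them the most negative of all.

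A position at the start of the gene went with a negative change. Of the 404 members whose gene had a start in the RefSeq table, 64 began within 50 bases of one (15.8%), and 41 of these matched it to the base. Of the 64, 56 were negative and 8 positive, a negative share of 87.5%, while the 340 that began elsewhere held 158 negative and 182 positive changes (46.5% negative). Their median absolute change was 1.21 at a start and 0.69 away from it, and their median enrichment was 3.625 and 10.8. Without the members at a start the negative share of the remaining 448 was 47.1%, against 52.1% for all, so positive changes were then the more frequent. In the other classes peaks at a start were also mostly negative, 46 of 48 for 1 block and 138 of 150 for 3 or more blocks.

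Among the 10 most negative members, counted once per gene and without unnamed predicted genes, 8 began within 50 bases of a start, and 1 had no start in the table. Their enrichments lay between 1.84 and 14.7. In 9 of the 10 the 5′ block was the longer. The peak on Qrich1, a transcriptional regulator, spanned 108517087 to 108518727 of chromosome 9 (mm10) and changed by -3.76 with an enrichment of 3.59 and a false discovery rate of 1.6e-13 in the authors' deposited table. It covered 154 bases before and 25 bases after a gap of 1462 bases. A differential peak of 5 blocks that began farther on in Qrich1, at 108518787, changed by only -0.401 at an enrichment of 27.2. Scand1, a SCAN domain gene, followed at -3.63 (chromosome 2, 156312284 to 156312704), with 203 and 119 bases around a gap of 99 bases, per the authors' deposited table.

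Bcat1, the cytosolic branched-chain aminotransferase, had a change of -2.97 and an enrichment of 12.3 in the authors' deposited table, with a gap of 27076 bases and only 31 bases in the second block. Basp1, a membrane-bound protein of neuronal growth cones, was unlike the others in shape. Its peak changed by -2.29 at an enrichment of 14.7 in the authors' deposited table, and most of its 1078 bases, 865, lay after a gap of 48633 bases. Cox10, needed to make the heme of cytochrome oxidase, was the least enriched of the 10, at 1.84 with a change of -2.30, in the same deposited table of the authors. Slc35b3, a Golgi nucleotide-sulfate transporter, at -2.20, and Ogfr, the opioid growth factor receptor, at -2.05, also began at starts in the authors' deposited table.

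Arpc5, a subunit of the actin-nucleating Arp2/3 complex, changed by -2.06 at an enrichment of 8 in the authors' deposited table, and its second block held 1 base after 326 in the first. The signal of that peak thus lay on 1 side of the gap. The change on Mypop, a Myb-related transcription factor gene, was -1.99 in the authors' deposited table, and its peak began 1013 bases from the nearest start. H2-Q5, a class I histocompatibility gene, had -2.32 in the authors' deposited table. It has near-identical relatives, so its reads are uncertain.

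Of the 10 most positive members, chosen by the same rule, 1 began at a start, 7 began elsewhere and 2 had no start in the table. The rule left out 2 clone-named genes, 2610005L07Rik at 2.23 and 6330403K07Rik at 1.36 in the authors' deposited table, and neither of their peaks began at a start found in the table. Hcn3, which encodes a hyperpolarization-activated cation channel, had the most positive change, 2.59, at an enrichment of only 1.67 in the authors' deposited table (chromosome 3, 89151028 to 89151521). It covered 97 and 53 bases around a gap of 344 bases. Exd2, an exonuclease gene, was the next named gene, at 1.62 with 291 and 70 bases around 1047 in the authors' deposited table. Hcn3 was 1 of only 3 positive members with an enrichment under 2.

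Zcchc4, which encodes an m6A methyltransferase of large-subunit ribosomal RNA, came next at 1.56 (enrichment 4.19, false discovery rate 6.8e-05) in the authors' deposited table. Its peak, on chromosome 5 from 52823541 to 52823857, has a gap of 46 bases and ends 809 bases before the gene does. Kdm5b, a histone demethylase gene, had 1.39, and Vangl2, a planar cell polarity gene, 1.38 in the authors' deposited table. The enrichment on Vangl2, 14, was the highest of the 10. Tmem138, D6Wsu163e, Ubn1, Myt1 and Lyst completed the 10 named genes, from 1.34 down to 1.27 in the authors' deposited table. Myt1 is a zinc finger transcription factor of neural cells, and its peak had 11 bases before and 498 bases after the gap.

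The 8 positive members at a start were on Rpl36al, Sf3b1, Bcdin3d, Sertad3, Sdhaf3, Pigc, Pan2 and D6Wsu163e, between 0.341 and 1.32 in the authors' deposited table. On Rpl36al, Bcdin3d and Sertad3 the peak also ran to the annotated end of the gene. Their enrichments went from 2.09 on Sf3b1, a core splicing factor, to 31.7 on Sertad3 in the authors' deposited table. Rpl36al encodes a ribosomal protein close in sequence to another, so its reads are uncertain.

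The most strongly enriched members were of both signs and had moderate changes. The peak on 6030419C18Rik had an enrichment of 71.1 and a change of -1.07, and that on Dennd5b, a Rab regulator gene, 69.1 and 0.906 in the authors' deposited table. Lrrc8b, a subunit of the volume-regulated anion channel, had 62.6 and 0.625, Fam171b 59.4 and 0.496, and Tapt1 57.3 and 0.542, in the authors' deposited table. Of these 5 genes only Fam171b (-0.57 ± 0.11, adjusted p = 4.34e-06), Tapt1 (-0.33 ± 0.13, adjusted p = 0.037) and Dennd5b (-0.25 ± 0.09, adjusted p = 0.0189) changed in input by DESeq2 in the authors' deposited table, all downward. No gene of this group rose in input.

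The shape of the members was lopsided toward the 3′ side. They covered a median of 567.5 bases (60 to 6013), against 419 in 1-block peaks and 509 in peaks of 3 or more blocks. The 5′ block had a median of 100 bases and the 3′ block 378.5, and the 3′ block was the longer in 337 members (65.8%). Positive members were longer, at a median of 689 against 446 bases, and had the longer 3′ block in 73.1% against 59.2% of negative members. Where the 3′ block was longer, 46.9% of changes were negative and the median enrichment was 11.1. Where the 5′ block was longer, the values were 62.3% and 5.36.

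**Figure D3:**
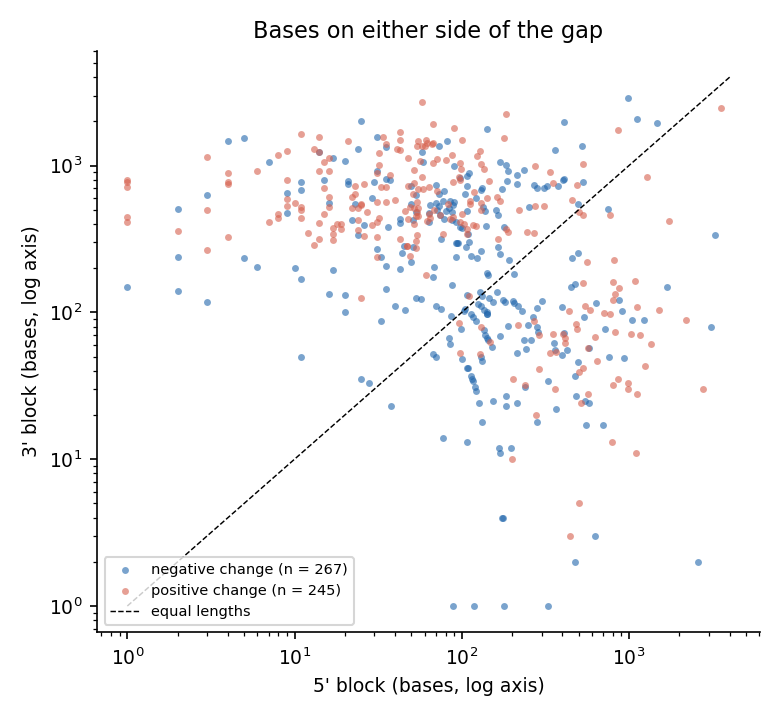
Lengths of the 5′ and 3′ blocks of each 2-block peak in bases, both on log axes, coloured by the sign of the change; the dashed line marks equal lengths. Of the 512 points, 337 lie above the line, and the cloud at short 5′ and long 3′ blocks holds more positive than negative changes.

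Many members reached only slightly past the gap. The shorter block had fewer than 30 bases in 139 members and fewer than 10 in 46. A 5′ block under 30 bases was found in 63 positive and 38 negative members, and a 3′ block under 30 bases in 9 positive and 29 negative members. The short side was therefore more often the upstream one in positive peaks. In Eif3g, a subunit of translation factor eIF3, the second block had 1 base, the enrichment was 1.08 and the change -0.50 in the authors' deposited table, the lowest enrichment of all members.

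The gap had a median of 1850.5 bases, with quartiles of 779 and 4963, and 68 gaps passed 10000 bases. Its median was nearly the same for negative (1838) and positive (1863) members. The longest, 283122 bases, was in the peak on Cmss1 and the next, 249746 bases, in that on Tshz2, a zinc finger transcription factor gene. These changed by -1.37 and -0.68 in the authors' deposited table. Gaps under 50 bases occurred in 2 members: 1 base in Fam181b and 46 bases in Zcchc4. A gap of 1 base is too short to be an intron, so the peak on Fam181b does not cross a splice junction as the others may. Gaps were not compared with annotated introns, as no exon annotation was used here.

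Along the gene, negative members occurred over its whole length but more often toward both ends, and positive members lay toward the 3′ end. The lowest share of negative members, 5.26%, was between 50% and 60% of the gene span. The midpoint of the genomic span of the peak fell in the last 10% of the gene in 68 of 245 positive (27.8%) and 44 of 266 negative members (16.5%). In the first 10% the numbers were 6 (2.45%) and 32 (12%). A long gap shifts this midpoint into the intron. Taken at the middle of the covered bases, chosen as the alternative measure, the shares of negative members became 25.9% in the last and 21.4% in the first 10%, and those of positive members 37.1% and 1.63%. The order of the signs at either end was the same with both measures.

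**Figure D4:**
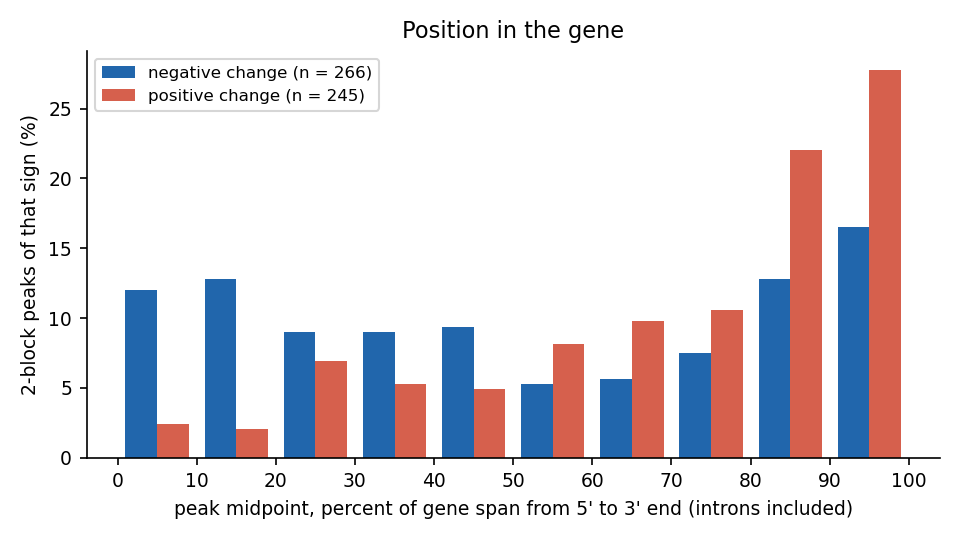
Percent of negative (n = 266) and positive (n = 245) 2-block peaks in each 10% of the gene span, from the 5′ to the 3′ end with introns included, by the midpoint of the peak. Positive peaks rise to 27.8% in the last 10%, while 12% of negative peaks lie in the first.

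By the midpoint of the span, 21.9% of all 511 placed members lay in the last 10% of the gene. The shares were 57.2% of 1067 1-block peaks and 7.52% of 532 peaks of 3 or more blocks. A gap can shift this midpoint, and 1-block peaks have no gap, so the classes were not measured alike. At the middle of the covered bases the share of 2-block peaks was 31.3%, and that measure is not given here for the other classes. Only 38 members ended within 50 bases of the annotated gene end, 22 of them negative and 16 positive. In all 38 the 3′ block was the longer. Their median enrichment was 11.2 and their median absolute change 0.57.

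Genes with more than 1 of these peaks kept 1 sign in most cases. Of 12 genes with 2 members, 6 had both negative, 5 both positive and 1 had a member of each sign. That gene was Rapgef2, an activator of Rap GTPases on the minus strand of chromosome 3. Its upstream peak (79066780 to 79069424) changed by -0.69 at an enrichment of 22.2, and its downstream peak (79063873 to 79066631), 148 bases farther on, by 0.74 at 5.94, in the authors' deposited table. Input RNA of Rapgef2 stood at 0.08 ± 0.08 with an adjusted p of 0.489 by DESeq2 in the authors' deposited table.

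Kdm5b carried 2 positive peaks at 1.39 and 0.67, Nfic, a transcription factor gene, 2 negative ones at -0.78 and -1.42, and Rrbp1, a ribosome-binding protein of the endoplasmic reticulum, 2 at -0.48 and -0.63, in the authors' deposited table. The 2 peaks of Kdm5b differed in enrichment, 2.32 and 25.5, with the larger change on the weaker peak, in the authors' deposited table. Phf23 showed the same order, with -1.68 at an enrichment of 5.33 and -0.24 at 16.9 in the authors' deposited table. Calu, Dennd5b, Nfic, Rapgef2, Rrbp1 and Rsf1 also had the larger absolute change on the less enriched peak. Only the remaining genes with 2 members, Prr13, Plcl2, Tubb4b and Wdr47, showed the reverse, with the larger change on the more enriched peak. The 2 peaks on Plcl2 were 296 bases apart and those on Rsf1, a chromatin remodelling factor, 59 bases apart, each pair positive.

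In addition, 63 of the 500 genes held a differential peak of another block count. In 54 of these all peaks had the same sign, and in 9 the signs differed. In each of the 9 the negative peak lay 5′ of the positive one: 7 were a negative member upstream of a positive peak and 2 a positive member downstream of a negative peak. The widest differences were on Psme3, a proteasome activator, with -1.94 against 0.524, and on Rtf1, a subunit of the Paf1 transcription elongation complex, with 1.09 against -0.838, in the authors' deposited table. Nmt1, an N-myristoyltransferase, had -1.28 against 0.379 and Commd1, a copper and endosomal trafficking factor, -1.01 against 0.516 in the authors' deposited table. Enrichments on Psme3 were 1.35 and 1.33 in the authors' deposited table, so that pair rested on weak peaks.

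Input RNA was measured in the same cells and was not used to choose the members by block count. Of the 500 genes, 499 were in the input table and 495 had an adjusted p. By the authors' DESeq2 test 133 rose and 96 fell at an adjusted p under 0.05, that is 26.9% and 19.4%, where 17.1% of all 12807 tested genes rose and 15.5% fell. The member genes had a median mean normalized count of 2132 and all tested genes 1038, so changes in the former were measured with smaller errors (median SE 0.087 against 0.114). Their part in the higher share of calls was not tested.

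By the sign of the peak, genes with negative members rose in 105 cases and fell in 40 of 256, and genes with positive members rose in 28 and fell in 56 of 238. The median input log2 fold change was 0.14 and -0.04, beside -0.0023 over all tested genes. For negative 1-block peaks 155 of 375 genes rose (41.3%) and 46 fell (12.3%). For positive 1-block peaks 100 of 602 rose (16.6%) and 158 fell (26.2%). With 3 or more blocks, 170 of 415 genes with negative peaks rose (41.0%) and 44 fell (10.6%). Of 99 genes with positive peaks of that class, 11 rose (11.1%) and 19 fell (19.2%). The peak change may draw on the same input libraries, which the sources used here do not state, so these are values side by side and not evidence of a relation. Mean expression also differed, with a median of 3419 for genes with negative and 1415 for genes with positive members.

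Of 55 tested genes with a negative member at a start, 14 rose and 14 fell in input, 25.5% each way beside 17.1% and 15.5% of all genes, and the median was 0.0031. Their difference from the other negative members was not tested. Left without the genes that had a member at a start, the negative group held 91 rising and 26 falling genes of 201.

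**Figure D5:**
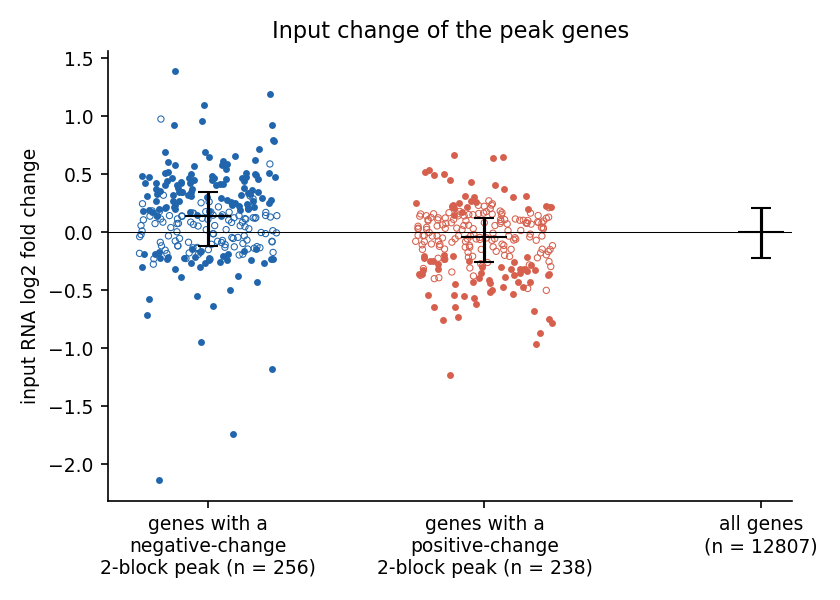
Input log2 fold change in the authors' DESeq2 table for genes with a negative-change (n = 256) or positive-change (n = 238) 2-block peak; filled points passed an adjusted p under 0.05. Horizontal marks with bars show the median and quartiles, for all 12807 tested genes too. The median is 0.14 for the first, -0.04 for the second and -0.0023 for all genes.

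Among member genes with a mean normalized count of at least 100, the 5 largest rises in input were on genes with negative peaks. Scand1, below that level at a mean of 77.8, rose by 1.19 ± 0.37 (adjusted p = 0.00679 by DESeq2) in the authors' deposited table. Nfic rose by 1.39 ± 0.08 (log2, SE; adjusted p = 4.76e-70), Gse1, a chromatin corepressor gene, by 1.10 ± 0.07 and Hlx, a homeobox gene, by 0.96 ± 0.12 by DESeq2 in the authors' deposited table. Their peaks changed by -1.42 and -0.78, by -1.22 and by -0.80, with enrichments between 4.42 and 20.2 in the authors' deposited table. Fam181b (0.92 ± 0.13, peak -0.43) and Angptl2, a secreted angiopoietin-like protein (0.92 ± 0.14, peak -0.83), completed the 5 in the authors' deposited table.

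Among the 5 largest falls both signs occurred. Tppp3, a tubulin-binding protein, fell by 2.14 ± 0.09 with its peak at -1.35 in the authors' deposited table. Eif4ebp1, a repressor of eIF4E, fell by 1.74 ± 0.07 and its 2-block peak stood at -0.21 in the authors' deposited table. A differential peak of 1 block near the 5′ end of Eif4ebp1 changed by -2.55 at an enrichment of 1.66. Colgalt2, a collagen galactosyltransferase, fell by 1.18 ± 0.33 with a peak of -1.64. Fundc1, a mitophagy receptor (-1.23 ± 0.17), and Adprm (-0.96 ± 0.18) carried positive peaks of 0.738 and 0.883 in the authors' deposited table.

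Gene lists of RNA, chromatin and neuronal function were used to see where the members fell. Of all 16279 genes in the input table, 499 carried a member (3.07%). Of 14 lists, 11 held at least 1 member. None of 12 m6A reader, 4 eraser and 52 cell cycle genes in the input table carried one, although 3, 1 and 16 of them had a differential peak of some kind. Of 12 m6A writer genes 2 carried a member (16.7%): Zcchc4, described above, and Wtap, which anchors the writer complex in nuclear speckles. The peak on Wtap changed by -1.04 at an enrichment of 13.3 in the authors' deposited table and had 6 bases before and 204 bases after a gap of 5347. Neither gene changed in input (Wtap -0.0033 ± 0.07, adjusted p = 0.979; Zcchc4 -0.08 ± 0.12, adjusted p = 0.677, by DESeq2 in the authors' deposited table). In the list of 12 writers, 6 rose and 0 fell in input, beside 17.1% rising and 15.5% falling of all genes.

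Of 46 neural and sympathoadrenal genes in the table, 8 carried a member (17.4%, beside 3.07% of all genes). A differential peak of any block count was on 21 of the 46. The whole list of differential peaks lay on 1912 genes, with 16279 genes in the input table. All 8 member changes were negative, where 52.1% of all members were, with a median of -0.5575 beside -0.2665 for all members. The largest was -1.34 on Dpysl3, a regulator of axon growth. Hand2, a sympathoadrenal transcription factor gene, had -0.85, Elavl4, a neuronal RNA-binding protein gene, -0.67 and Tcf4 -0.58 in the authors' deposited table. Gap43 (-0.54), Map1b (-0.42), Gata2 (-0.33) and Tubb3 (-0.27) followed in the authors' deposited table. Enrichments ran from 2.06 on Elavl4 to 30.7 on Gap43, a growth cone protein whose peak crossed a gap of 48106 bases, in the authors' deposited table. In input 20 of 44 tested genes of this list rose (45.5%) and 5 fell (11.4%), beside 17.1% and 15.5% of all genes.

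The chromatin regulators, the longest list, held 14 members on 13 of 81 genes (16.0%, beside 3.07% of all genes). A differential peak of any block count was on 32 of the 81. The members had 8 negative and 6 positive changes. After Kdm5b the largest were -1.34 on the remodeller gene Chd4, 0.988 on Setd5 and -0.85 on Eed, a subunit of the Polycomb repressive complex, in the authors' deposited table. The peak on Chd4 covered only 61 bases at an enrichment of 1.4 in the authors' deposited table. Members of the Chd family were split, with positive changes on Chd8 (0.751) and Chd6 (0.713) and negative ones on Chd4, Chd7 (-0.71) and Chd1 (-0.34) in the authors' deposited table. These 5 Chd genes all rose in input, between 0.31 ± 0.07 for Chd6 and 0.52 ± 0.08 for Chd7 in the authors' deposited table. In input 47 of the 81 chromatin genes rose (58.0%) and 5 fell (6.17%), beside 17.1% and 15.5% of all genes. The rising share was above that of all genes in each of the 14 lists, from 25.0% in m6A erasers to 66.7% in m6A readers. A high rising share was thus not particular to the chromatin, neural or writer genes.

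The RNA-processing and ribosome lists held between 1 and 4 members each. Of 60 splicing factor genes 4 carried one (6.67%, beside 3.07% of all genes): U2af2 at -1.72, Srsf4 at -0.74, Prpf31 at 0.612 and Sf3b1 at 0.479 in the authors' deposited table. Of 16 exon junction complex genes 2 carried one (12.5%), both negative. They were Casc3, a core subunit, at -1.23 with an enrichment of 1.17, and Pnn at -0.64, in the authors' deposited table. Both genes rose in input, by 0.35 ± 0.07 and 0.43 ± 0.07 (adjusted p = 2.52e-06 and 1.09e-08 by DESeq2), in the authors' deposited table. In small subunit assembly, the list of Emg1 itself, 1 of 40 genes carried a member (2.5%), Dcaf13 at -1.15 in the authors' deposited table. In large subunit assembly 2 of 28 did (7.14%), Nip7 at -0.65 and Mybbp1a at -0.61, in the authors' deposited table. Of 36 helicase genes 2 carried one (5.56%), Ddx10 at -1.90 and Ddx47 at -0.38 in the authors' deposited table.

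Of 46 translation factor genes 4 carried a member (8.70%, beside 3.07% of all genes), 3 negative and 1 positive. Besides Eif3g and Eif4ebp1 they were Eef1d at -0.40 and Eif2a at 0.391 in the authors' deposited table. Of 61 ubiquitin genes 4 carried a member (6.56%), 3 of them positive. They were Usp3 at 0.887, the ligase genes Herc1 at 0.881 and Trip12 at 0.691, and Uba1, the main ubiquitin-activating enzyme, at -1.43 in the authors' deposited table. Of 37 kinase signalling genes 2 carried one (5.41%), Map3k4 at 1.02 and Irs2, an insulin receptor substrate, at -0.59 in the authors' deposited table. With so few members these list counts describe single peaks and support no statement about a list.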

How the data were processed

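The tools named are HISAT2, Trimmomatic and DESeq2, with the mm10 build, per the submitters' processing notes. Not given in the sources used here are the peak caller, read counter, annotation, versions and any pooling of replicates for peaks. In the peak list the fold enrichment is a ratio and the change a log2 value, both deposited by the authors, and false discovery rates and p-values were deposited as log10, treated as score values because they pass the usual range. In the input table the mean normalized count is a signal, fold change and SE are log2 values, the Wald statistic is a score, and p-values are as deposited by the authors. No count model was refitted, and depth per library is unknown.

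Blocks were ordered by strand and starts counted from 1. Of the 512 members, 489 matched a RefSeq gene by symbol and 22 by synonym; 1 did not match. The distance to a start used RefSeq starts listed for 404 members. Geometry was tested on simulated peaks. Genes were named by fixed rules: the 10 largest changes of each sign, the 5 highest enrichments, extremes of shape, up to 4 per list, the 5 largest input changes each way, genes with several members and opposite peaks. Genes named outside these rules, such as the positive members at a start, were chosen after their values were seen. The members and lists were chosen with earlier results of these data known. Software was matplotlib 3.10.9, scipy 1.17.1, pandas 2.3.3 and numpy 2.4.6 under Python 3.11.15. Alternatives were stricter thresholds, an enrichment minimum, block length, expression minimum and position measure.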

Additional observations from a re-analysis of the deposited data

How the results depend on the processing

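No paired analysis was possible because the tables hold no value per library, and no replicate could be left out for the same reason. The exon-junction match, transcript position and DRACH motif share were not run, as no exon annotation or genome was used. The negative share of 52.1% became 46.5% at an enrichment of at least 2 and 47.1% without members at an annotated start, so the majority sign turned. The share in the last 10% of the gene went from 21.9% to 31.3%, and in the first 10% from 7.44% to 11.9%, with the middle of the covered bases in place of the midpoint of the span. The share at a start, 15.8% within 50 bases, was 10.1% when an exact match was required and 19.3% within 100 bases. Of the 27 alternatives to the main results the other 22 stayed within the 95% exact binomial interval of the share or median, or within 1.5 times the count. Some of these kept nearly all members, such as 503 of 512 at a false discovery rate of at most 0.01, and could hardly move. The settings that require an exact start, a distance of 100 bases, gaps of at least 50 bases or no member at a start were chosen after seeing the data. Peaks are not independent, so the intervals cover counting only.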
